A study of Mus musculus with 6 samples.

Results

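A set of 10 gap junction and related channel genes of the mouse retina was followed through an experiment in which intraocular pressure was raised with microbeads. They were matched by gene symbol, with no threshold on a value, from a list drawn up with earlier results of these data known, and are the connexin genes *Gjd2*, *Gja10*, *Gjc1*, *Gja1*, *Gja4*, *Gja5*, *Gjb2* and *Gjb6* and the pannexin genes *Panx1* and *Panx2*. All were found among the 31169 genes of the count table. Retinas were taken from C57BL/6 mice aged 2 months, 4 weeks after the anterior chamber of the eye had been injected with saline (3 libraries) or with microbeads 15 µm across (3 libraries). Both groups therefore shared strain, age, injection and the time after it, and differed in what was injected. RNA came from whole retina and was poly(A)-enriched, and each value is an average over all its cells. The labels do not say whether the retinas of a group came from separate mice, so the p-values measure the spread between these samples, which may be partly technical.

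Connexins are membrane proteins that assemble into hexameric channels, and the docking of such channels from neighbouring cells forms a gap junction through which ions and small molecules pass directly. Between neurons this contact is an electrical synapse, and the retina is known for its many kinds, including those that join rods to cones, AII amacrine cells to each other and to ON cone bipolar cells, and horizontal cells into sheets. Pannexins resemble connexins in topology but usually do not dock, and act as channels of a single membrane that release ATP. Glia and the cells of blood vessels use their own set of connexins.

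The saline libraries held 36085737 to 46481382 counted reads and the microbead libraries 13574949 to 19834366, so the median depth was 2.40 times higher in saline. Mitochondrial genes took 3.19% to 3.57% of counts in saline and 8.90% to 10.6% in microbead libraries. The sample titles run on in one series over both groups, but the library names in the sample descriptions are of one form in saline and of another in microbead samples, and whether the groups were prepared or sequenced apart is not stated. Any effect of this would coincide with the injected material and cannot be told apart from it. Retinal markers were present in every library, with rod genes summing to 54024 to 80898 CPM (read counts scaled to a common, TMM-adjusted library size). The replicate 3 saline library stood apart by lens genes (33.8 CPM summed, against 0.722 to 4.09 in the other libraries) and by retinal pigment epithelium genes (187 CPM, against 12.5 to 121). The replicate 1 saline library had the lowest summed level of ganglion cell genes (381 CPM, against 948 to 1413).

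Enough counts for a test were found for 7 members, and too few for *Gjb2*, *Gja5* and *Gjb6*. In edgeR's quasi-likelihood test, with Benjamini-Hochberg adjustment over all 17707 genes tested and a threshold of 0.05, 1 of the 7 (*Gjd2*) fell in microbead retinas and 0 rose, and 0 rose in DESeq2 or limma-voom. At an unadjusted p under 0.05, 2 were lower and 0 higher, where 31.4% of all genes tested were under it. By adjusted p, 12.8% of all genes tested were called, 6.31% as lower and 6.46% as higher, so 1 call among 7 is close to the background and is not a result about these genes as a group. The values of microbead retinas lay wholly below those of saline in 2 of the 7, *Gjd2* and *Gja4*, and wholly above in 0. Over all genes tested the groups were apart in 37.8%, with microbead below in 18.9% and above in 18.8%. The median log2 fold change of the 7 was −0.47, and that of all genes tested was −0.03.

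**Figure D1:**
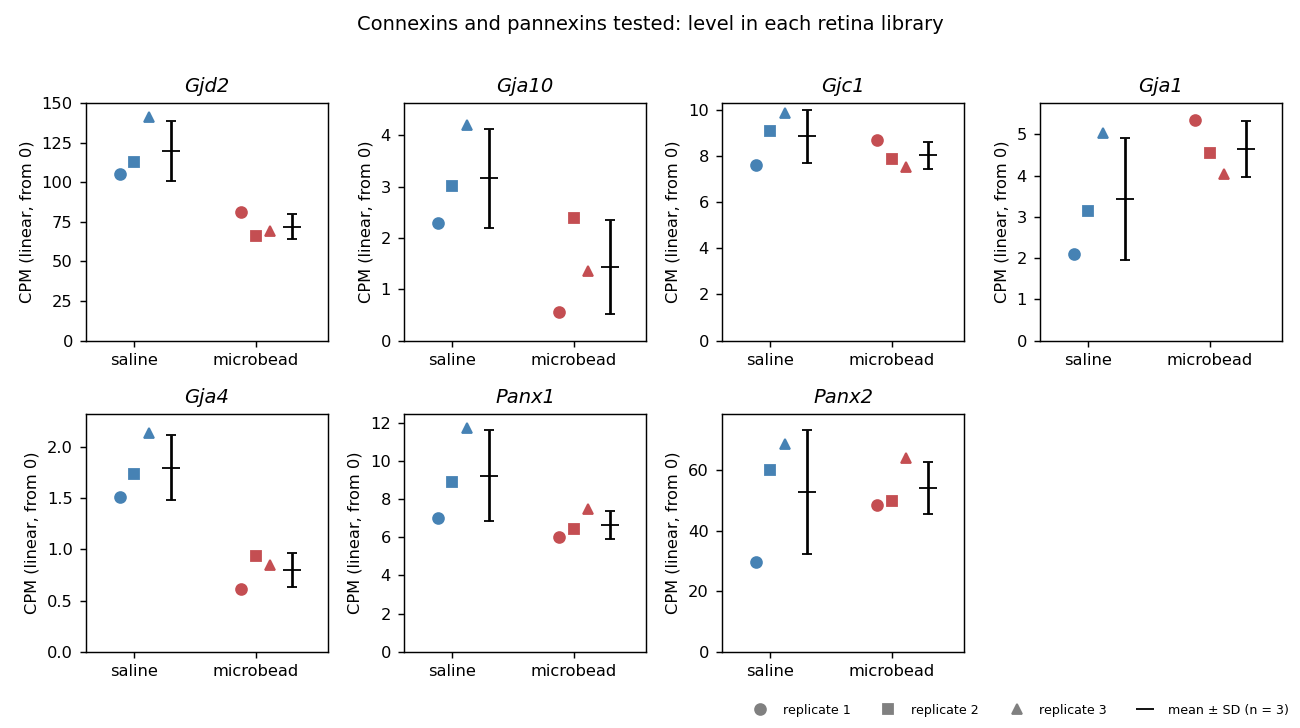
CPM of the 7 tested members (y axes, linear, each starting at 0) in the saline and microbead libraries (x axes), with one symbol per replicate and the mean ± SD of 3 libraries beside them. The groups are apart in *Gjd2* (105.3 to 140.8 against 65.7 to 81.2 CPM) and in *Gja4* (1.51 to 2.14 against 0.618 to 0.939 CPM) and overlap in the other 5.

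*Gjd2* encodes connexin 36, the main connexin of neuronal electrical synapses, which in the retina is made by AII amacrine cells, cones, some bipolar cells and some ganglion cells. Its level was 105.3, 112.9 and 140.8 CPM in the saline libraries and 81.2, 65.7 and 69.1 CPM in the microbead libraries. The highest microbead library was below the lowest saline library. The mean was 119.7 ± 18.7 CPM in saline and 72.0 ± 8.12 CPM in microbead retinas (SD, n = 3 each), a log2 fold change of −0.73 (SE 0.18, edgeR adjusted p = 0.0323), or a fall of 39.8%. From 910 to 5443 reads stood behind each value. In this bulk tissue, fewer cells that make a transcript and less of it per cell cannot be told apart.

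The fall of *Gjd2* kept its direction when any single library was left out (log2 fold change −0.83 to −0.60), but the edgeR adjusted p then ranged from 0.0277, without the replicate 1 saline library, to 0.123, without the replicate 3 microbead library, and was under 0.05 only in the first. Without the replicate 3 saline library, which held the most *Gjd2*, the log2 fold change was −0.60 (edgeR adjusted p = 0.0744). A block on the replicate number gave −0.73 with an adjusted p of 0.0664 in edgeR. All 7 tested members, *Gjd2* included, were lowest in the replicate 1 and highest in the replicate 3 library of the saline group, an order found in 25.1% of all genes tested.

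**Figure D2:**
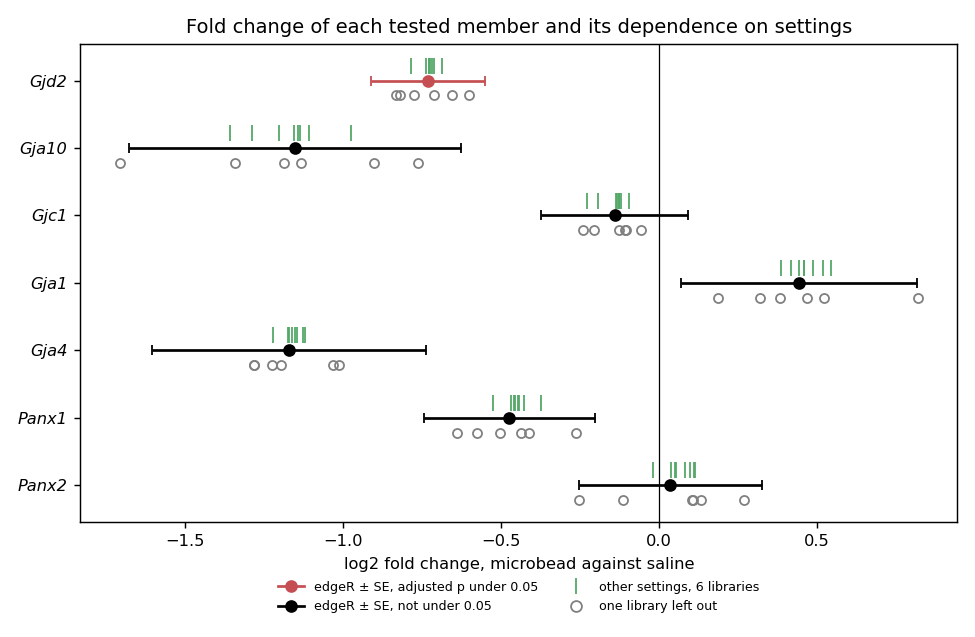
Log2 fold change of microbead against saline retinas (x axis) for the 7 tested members (y axis). Filled points with bars are the edgeR estimate ± SE, ticks are the other settings on all 6 libraries and open circles are the fits with one library left out, and only *Gjd2*, at −0.73, has an adjusted p under 0.05.

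The gene for connexin 36 lies on chromosome 2 of GRCm38 at 114009601 to 114013619, on the minus strand, and its 321 amino acids are encoded in 2 exons, where most connexins, such as those of *Gja1* and *Gja4*, have their coding sequence in 1. *Gja4* lies on chromosome 4 at 127311421 to 127314039, also on the minus strand. The remaining connexin members lie on chromosomes 4 (*Gja10*, 32596960 to 32602760), 11 (*Gjc1*, 102799579 to 102819700), 10 (*Gja1*, 56377330 to 56402513), 3 (*Gja5*, 96904693 to 97077416) and 14 (*Gjb2*, 57098600 to 57104702, and *Gjb6*, 57123303 to 57133611), and the pannexins on chromosomes 9 (*Panx1*, 15002128 to 15045478) and 15 (*Panx2*, 89059734 to 89073567). The 250 bases before the RefSeq start of *Gjd2* (chr2:114013620-114013869) and of *Gja4* (chr4:127314040-127314289) are shown, 5′ to 3′ on the minus strand of GRCm38.p6, because these are the tested members whose groups did not overlap. Capitals mark GGGCGG, the core of the GC box bound by Sp factors, and, in *Gjd2*, the letters GGATTA, which read TAATCC on the other strand, the core recognised by the photoreceptor homeodomain factors Crx and Otx2.
Gjd2: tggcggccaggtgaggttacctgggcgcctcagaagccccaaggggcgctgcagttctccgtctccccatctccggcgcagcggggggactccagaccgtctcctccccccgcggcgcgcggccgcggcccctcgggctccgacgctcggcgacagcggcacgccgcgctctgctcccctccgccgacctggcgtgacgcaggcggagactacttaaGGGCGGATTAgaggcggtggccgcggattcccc
Gja4: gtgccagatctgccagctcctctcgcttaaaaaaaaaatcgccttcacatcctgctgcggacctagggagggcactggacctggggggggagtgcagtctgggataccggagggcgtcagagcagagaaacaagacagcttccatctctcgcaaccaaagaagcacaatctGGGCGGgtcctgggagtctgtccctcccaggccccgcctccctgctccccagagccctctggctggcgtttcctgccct

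The *Gjd2* sequence was 74.0% G and C with 33 CpG dinucleotides, where the median of the 32851 RefSeq mouse promoters of the same length was 52.4% with 6 CpG. In *Gjd2* the motif GGGCGG began 33 bases before the start and GGATTA 29 bases before it, so that the motifs share 2 letters. The *Gja4* sequence was 61.2% G and C with 9 CpG and held GGGCGG once, from 79 bases before the start. On either strand, GGGCGG was found in 32.7% of all promoters, TAATCC in 6.25% and TATAAA, the TATA box, in 12.4%, and neither printed sequence held TATAAA. These are matches of letters and not measured binding sites.

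A noncoding gene, *A530058N18Rik*, runs on the opposite strand at the start of *Gjd2* and shares 18 bases of exon with it in one gene model and 57 bases in another. The first model had 41.9, 35.8 and 26.2 CPM in saline and 57.0, 45.5 and 40.0 CPM in microbead libraries, values that overlapped (log2 fold change 0.46, edgeR adjusted p = 0.190). The second had at most 9 reads in any library. The libraries were stranded but the strand setting of the counting is not given in the sources used here.

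To set *Gjd2* beside the cells that make it, its CPM was given as a percent of the summed CPM of marker genes. Against AII amacrine markers it was 21.4%, 13.5% and 15.2% in saline and 9.87%, 9.23% and 8.22% in microbead libraries. Against cone markers it was 4.62%, 7.64% and 8.00% in saline and 3.60%, 3.11% and 3.73% in microbead libraries. Against bipolar cell markers it was 8.26%, 7.72% and 8.54% in saline and 5.93%, 4.21% and 5.98% in microbead libraries. In each of the 3 ratios every microbead library lay below every saline library. The same held against AII markers without *Prox1* (19.3% to 36.1% in saline and 10.2% to 13.2% in microbead libraries). The separation against AII markers depended on *Calb2*, without which the groups overlap. *Calb2* had 152, 378 and 495 CPM in saline and 570, 318 and 506 CPM in microbead libraries. It alone among the AII markers had a positive log2 fold change (0.44). The marker sums themselves overlapped between the groups, at 493 to 927 CPM in saline and 712 to 841 CPM in microbead retinas for AII cells, 1477 to 2279 and 1854 to 2256 CPM for cones and 1276 to 1649 and 1155 to 1560 CPM for bipolar cells. The AII marker *Prox1*, is also a horizontal cell marker, and no listed marker was at 0 in all libraries. Of the AII, cone and bipolar markers tested, 0 of 4, 0 of 9 and 0 of 8 fell in edgeR (0, 1 and 1 at an unadjusted p under 0.05, and 0 in each with DESeq2), and 1 cone marker rose in edgeR, 2 in DESeq2 and 2 at an unadjusted p under 0.05.

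The other neuronal connexins had far fewer reads. *Gja10*, whose connexin 57 couples horizontal cells, had 2.28, 3.01 and 4.19 CPM in saline and 0.566, 2.38 and 1.36 CPM in microbead libraries. The replicate 2 microbead library lay within the saline range, so the groups overlapped. The means were 3.16 ± 0.964 and 1.44 ± 0.911 CPM, and the log2 fold change of −1.15 (SE 0.53) did not pass the test (edgeR adjusted p = 0.167). It rested on 86, 145 and 147 reads in saline and 11, 33 and 21 in microbead libraries, and it was −1.71 without the replicate 2 microbead library and −0.76 without the replicate 1 microbead library.

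Horizontal cell markers summed to 307 to 375 CPM in saline and 227 to 294 CPM in microbead libraries, without overlap. All 6 of these markers had a negative log2 fold change (median −0.79), and 1 fell, *Onecut2*, a homeodomain transcription factor (log2 fold change −1.36, edgeR adjusted p = 0.0335). As a percent of this sum *Gja10* was 0.744%, 0.803% and 1.12% in saline and 0.224%, 0.811% and 0.602% in microbead libraries. Unlike the *Gjd2* ratios to the full marker lists, this one overlapped between the groups. The contrast is not firm for AII markers, where the *Gjd2* ratio also overlapped without *Calb2*. *Prox1*, which also marks AII cells, made up 56.4% to 73.3% of the horizontal cell sum. Without it, a choice made after seeing the data, *Gja10* was 2.16%, 2.42% and 2.57% of the sum in saline and 0.572%, 3.04% and 2.16% in microbead libraries, which still overlapped. The more restricted markers *Lhx1* and *Onecut1* had log2 fold changes of −0.97 and −1.42 that did not pass the test (edgeR adjusted p = 0.0714 and 0.273), near the −1.15 of *Gja10*. The part of the horizontal cell markers in the *Gja10* values was not tested.

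**Figure D3:**
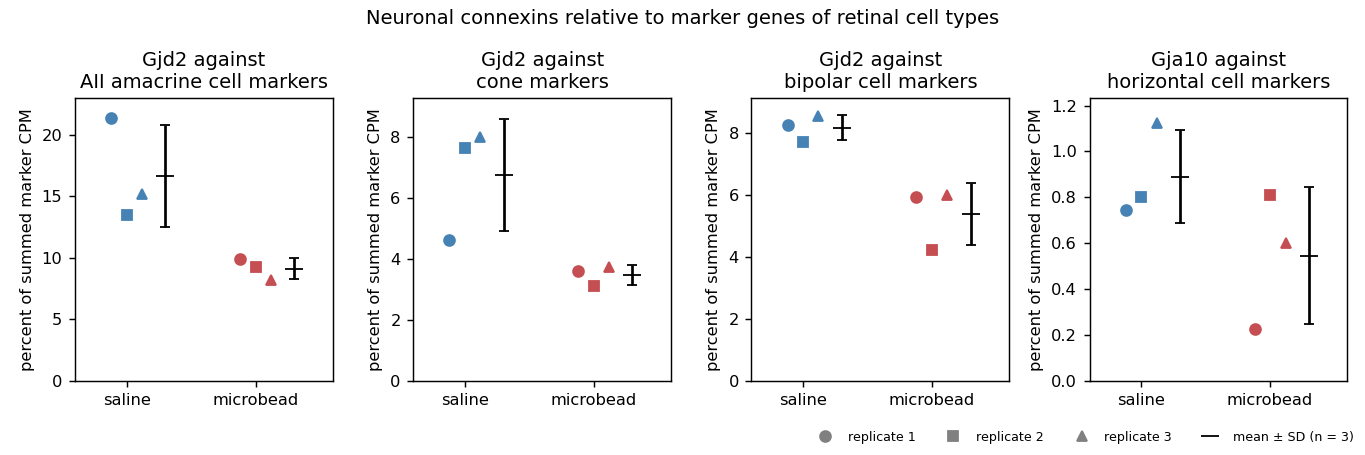
*Gjd2* CPM as a percent of the summed CPM of AII amacrine, cone and bipolar marker genes, and *Gja10* CPM as a percent of horizontal cell markers (y axes, linear, from 0), in each saline and microbead library (x axes), with the mean ± SD of 3 libraries. Saline lies above microbead in each *Gjd2* panel, at 13.5% to 21.4% against 8.22% to 9.87% for AII markers, and the groups overlap for *Gja10*. The separation for AII markers depends on *Calb2*.

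*Gjc1* encodes connexin 45, which pairs with connexin 36 at some AII to bipolar cell contacts and is also found in vascular cells. It had 7.62, 9.08 and 9.87 CPM in saline and 8.70, 7.87 and 7.54 CPM in microbead libraries. The groups overlapped, with means of 8.86 ± 1.14 and 8.03 ± 0.598 CPM, and the log2 fold change was −0.14 (SE 0.23, edgeR adjusted p = 0.719). Per kilobase of exon, *Gjd2* was 24.0, 21.6 and 24.8 times as abundant as *Gjc1* in saline and 16.2, 14.5 and 15.9 times in microbead libraries, without overlap between the groups. The size of this ratio depended on the length used: by the shortest principal transcript, a measure added after seeing the data, it was 9.07, 8.16 and 9.37 in saline and 6.13, 5.48 and 6.02 in microbead libraries, again without overlap.

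Levels were compared between genes as CPM per kilobase of joined exon. *Gjd2* was highest, at 41.6 ± 6.50 in saline and 25.0 ± 2.82 in microbead retinas (SD, n = 3 each). *Panx2* followed, at 14.6 ± 5.71 and 15.0 ± 2.41 CPM per kilobase. Their ranges did not touch in either group, although the ratio of *Gjd2* to *Panx2* was 4.46, 2.36 and 2.56 in saline and 2.10, 1.65 and 1.35 in microbead libraries. Next stood *Gjc1* (1.77 ± 0.228 and 1.61 ± 0.120), *Panx1* (1.53 ± 0.396 and 1.10 ± 0.124), *Gja10* (1.47 ± 0.447 and 0.667 ± 0.422) and *Gja4* (1.07 ± 0.188 and 0.475 ± 0.0980). In saline each of these 4 overlapped with its neighbour in the order by joined exon, but by the shortest principal transcript *Gjc1* stood apart, at 4.03 to 5.22 CPM per kilobase against 1.22 to 2.05 for *Panx1*. *Gja1* was at 0.334 ± 0.144 and 0.453 ± 0.0651 CPM per kilobase, and *Gjb2*, *Gja5* and *Gjb6* had means of 0.112, 0.0203 and 0.0120 in saline.

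By joined exon the first 8 genes kept the same order of means in both groups. The place of *Gja1* also depended on its length: by the shortest principal transcript (3.071 kb, against 10.257 kb of joined exon) it was at 1.11 CPM per kilobase in saline and 1.51 in microbead retinas, above the means of *Gja4*. By that length *Gja1* was below *Panx1* (1.61) and *Gja10* (1.49) in saline and above them (1.16 and 0.679) in microbead retinas, so the order changed. Among the 8 connexins *Gjd2* held 90.5%, 89.3% and 89.4% of the summed level per kilobase in saline and 90.7%, 86.0% and 88.7% in microbead libraries, which overlapped. The share of *Gja1* was 0.506%, 0.700% and 0.895% in saline and 1.68%, 1.67% and 1.45% in microbead libraries. The sum is mostly *Gjd2*, so a fall of *Gjd2* alone raises the share of every other connexin, and these shares are no evidence of a rise of *Gja1*.

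Among the glial connexins, *Gja1* encodes connexin 43, which couples astrocytes and is also made by Müller glia, endothelium and pigment epithelium. It had 2.10, 3.15 and 5.02 CPM in saline and 5.35, 4.55 and 4.03 CPM in microbead libraries. The replicate 3 saline library lay within the microbead range. The means were 3.42 ± 1.48 and 4.64 ± 0.667 CPM, and the log2 fold change of 0.44 (SE 0.37) did not pass the test (edgeR adjusted p = 0.453). Leaving out single libraries moved it between 0.19 and 0.82.

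Pigment epithelium markers, like *Gja1*, were lowest in the replicate 1 saline library, with sums of 12.5, 43.9 and 187 CPM in saline and 121, 105 and 103 CPM in microbead libraries. Their part in the *Gja1* values was not tested. Astrocyte markers summed to 65.6 to 96.9 CPM in saline and 80.5 to 90.0 CPM in microbead retinas, and *Gja1* as a percent of this sum overlapped, at 2.17%, 4.81% and 5.53% against 6.65%, 5.05% and 4.99%. Müller glia markers summed to 5430 to 9353 and 4677 to 5697 CPM, and 3 of 10 fell. As a percent of the Müller sum, *Gja1* was 0.0386%, 0.0508% and 0.0537% in saline and 0.0939%, 0.0824% and 0.0861% in microbead libraries, above saline in each.

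*Gjb6* and *Gjb2* encode connexins 30 and 26, which serve astrocytes and many epithelia. *Gjb6* had 1, 2 and 1 reads in saline and 0 in each microbead library. Both totals are near or under the 3 reads that a count of 0 allows, and no difference was detectable at this depth. *Gjb2* had 12, 14 and 7 reads in saline and 0, 1 and 1 in microbead libraries. Summed and scaled by depth it was 6.64-fold higher in saline (exact 95% interval 1.70 to 57.1, for counting error only), and without the filter on low counts its edgeR adjusted p was 0.203.

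The vascular connexins are *Gja4* and *Gja5*, whose connexins 37 and 40 join the endothelial cells of arteries. *Gja4* had 1.51, 1.74 and 2.14 CPM in saline and 0.618, 0.939 and 0.845 CPM in microbead libraries, from 57, 84 and 75 and from 12, 13 and 13 reads. Every microbead library was below every saline library. The means were 1.80 ± 0.317 and 0.800 ± 0.165 CPM, but the log2 fold change of −1.17 (SE 0.43) did not pass the test (edgeR adjusted p = 0.0995, unadjusted p = 0.0229). It was −1.28 to −1.01 with single libraries left out.

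Endothelial markers also lay lower, at 472 to 674 CPM summed in saline and 296 to 443 CPM in microbead libraries, without overlap, and 4 of 10 fell. Relative to that sum *Gja4* was 0.321%, 0.356% and 0.317% in saline and 0.193%, 0.212% and 0.286% in microbead libraries, again without overlap. Relative to arterial markers it was 3.60%, 2.95% and 2.49% in saline and 1.33%, 2.21% and 1.61% in microbead libraries. The arterial sum itself was 42.0 to 85.9 and 42.4 to 52.5 CPM, which overlapped. The part of the endothelial markers in the *Gja4* values was not tested.

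*Gja5* had 3, 2 and 8 reads in saline and 0 in each microbead library. The pooled saline level was 1.74 times a floor of 3 reads over the microbead group. This value leaves out the counting error of the 13 saline reads, 8 of which came from the replicate 3 library, so it is no firm bound. Without the filter on low counts its edgeR adjusted p was 0.186. Of its exonic stretches of 100 bases, 11.6% also occur in annotated transcripts of other genes, while none of those of the other members do, and it shares 165 bases of exon with *Gpr89* on the opposite strand, so its count is uncertain.

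Of the pannexins, *Panx1* encodes a widely made channel that opens on stretch and after caspase cleavage. It had 7.01, 8.90 and 11.8 CPM in saline and 6.02, 6.43 and 7.47 CPM in microbead libraries. The replicate 3 microbead library was above the lowest saline library. The means were 9.22 ± 2.39 and 6.64 ± 0.748 CPM, and the log2 fold change was −0.47 (SE 0.27, edgeR adjusted p = 0.264). As a percent of ganglion cell markers *Panx1* was 1.84%, 0.807% and 0.832% in saline and 0.464%, 0.678% and 0.618% in microbead libraries, with the replicate 1 saline library, low in those markers, far above the rest.

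*Panx2*, the pannexin typical of neurons, had 29.5, 59.9 and 68.7 CPM in saline and 48.4, 49.7 and 64.1 CPM in microbead libraries. All microbead libraries lay within the saline range. The means were 52.7 ± 20.6 and 54.1 ± 8.68 CPM, and the log2 fold change of 0.04 (SE 0.29, edgeR adjusted p = 0.949) had no stable sign, being −0.25 without the replicate 1 saline library and 0.27 without the replicate 3 saline library. Per kilobase, *Panx2* was 7.06, 11.3 and 9.80 times as abundant as *Panx1* in saline and 13.5, 12.95 and 14.4 times in microbead libraries, without overlap.

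The rest of the family was sparse, and the genes given here had too few reads to pass the filter on low counts. *Gja3*, a connexin of lens fibres, had 11 reads in the replicate 3 saline library, the one with the most lens gene reads, and 0 in each of the others. *Gje1* had 14, 13 and 10 reads in saline and 6, 4 and 6 in microbead libraries. Scaled by depth it overlapped, at 0.372, 0.270 and 0.285 CPM in saline and 0.309, 0.289 and 0.390 CPM in microbead libraries. *Gjd3* had 4, 8 and 10 reads in saline and 0, 0 and 2 in microbead libraries. *Gjb1*, the connexin of Schwann cells and hepatocytes, had 5, 13 and 6 in saline and 0, 4 and 6 in microbead libraries. The saline libraries were deeper, and without the filter on low counts the edgeR adjusted p was 0.978 for *Gje1*, 0.395 for *Gjd3* and 0.947 for *Gjb1*. *Panx3* had 1, 10 and 2 reads in saline and 0, 0 and 1 in microbead libraries, and *Gja6* had at most 1 in any library. No entry under the symbols *Gjb5*, *Gjc3* or *Gjd4* was found in the count table.

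Genes that work with these channels were read from lists of scaffold and partner proteins, of modulators of electrical synapses and of ATP release and purinergic signalling. Of the 15 partner genes tested, 2 fell and 0 rose (6 and 1 at an unadjusted p under 0.05 in edgeR, 3 and 0 in DESeq2), with a median log2 fold change of −0.28. *Prkce*, a protein kinase C, had 155, 194 and 214 CPM in saline and 79.2, 102 and 86.5 CPM in microbead libraries (log2 fold change −1.07, SE 0.19, edgeR adjusted p = 0.0149). *Ctnnb1*, the β-catenin of adherens junctions and Wnt signalling, had 262, 309 and 415 CPM in saline and 201, 186 and 177 CPM in microbead libraries (log2 fold change −0.80, SE 0.20, edgeR adjusted p = 0.0340). Neither gene overlapped between the groups. *Prkce* stayed under 0.05 in 4 of 6 fits with a library left out and *Ctnnb1* in 1 of 6.

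Of the 21 modulator genes tested, 1 fell and 0 rose (4 and 0 at an unadjusted p under 0.05 in edgeR, 1 and 0 in DESeq2), with a median log2 fold change of −0.17. It was *Drd4*, the dopamine receptor of photoreceptors, through which light and dopamine are known to regulate cone and rod coupling. *Drd4* had 236, 164 and 213 CPM in saline and 107, 115 and 127 CPM in microbead libraries, without overlap (log2 fold change −0.81, SE 0.19, edgeR adjusted p = 0.0264). It passed in 2 of 6 fits with a library left out.

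Of the 24 genes of ATP release and purinergic signalling tested, 2 fell and 0 rose (6 and 1 at an unadjusted p under 0.05 in edgeR, 4 and 0 in DESeq2), with a median log2 fold change of −0.43. *Lrrc8b*, a subunit of the volume-regulated anion channel, had 161, 166 and 173 CPM in saline and 83.3, 110 and 84.2 CPM in microbead libraries (log2 fold change −0.85, SE 0.17, edgeR adjusted p = 0.0197). *P2ry1*, a receptor for ADP, had 6.80, 8.19 and 9.22 CPM in saline and 4.58, 3.61 and 2.73 CPM in microbead libraries (log2 fold change −1.14, SE 0.30, edgeR adjusted p = 0.0379). *Lrrc8b* passed in 3 of 6 fits with a library left out and *P2ry1* in 1 of 6. Summed over the list, CPM was 535, 496 and 499 in saline and 364, 392 and 350 in microbead libraries, without overlap. Most of this sum was *Lrrc8b* (means of 166 and 92.6 CPM) and *Nt5e* (149 and 108 CPM, edgeR adjusted p = 0.0732). The sum is thus weighted to these genes, but without *Lrrc8b* and *Nt5e* the groups still did not overlap. Of the 24 genes, 19 had a negative log2 fold change, as had 52.1% of all genes tested. Microbead values lay wholly below saline in 8 of the 24 and wholly above in 1, against 18.9% and 18.8% of all genes tested. The list was not tested as a set. The shares called in the 3 lists, 13.3%, 4.76% and 8.33%, lie about or below the 12.8% of all genes tested.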

How the data were processed

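Retinal RNA of 6 libraries (3 saline, 3 microbead) was sequenced by the authors, who aligned reads with STAR 2.5.3a to GRCm38.p5 and counted them per gene with featureCounts 1.15.2, per the submitters' processing notes. The deposited values used here are raw counts per gene. The treatment of reads with several alignments is not given in the sources used here. The remaining columns of the table hold the authors' DESeq2 1.14 comparison (mean signal, fold changes, p-values and a call mark) and were not used. Groups came from the labels.

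Genes were kept by edgeR's filterByExpr, scaled by TMM and tested with the quasi-likelihood test in edgeR 4.0.16 (R 4.3.3), with Benjamini-Hochberg adjustment over 17707 genes and a threshold of 0.05. Fold changes are microbead against saline, and the script was checked on simulated counts. Totals of 13574949 to 46481382 reads set the precision, and intervals cover counting error only. No libraries of one group agreed within sampling noise. Exon lengths came from GENCODE vM21 and promoters from RefSeq (GRCm38.p6), in which 8 of 10 members were matched (not *Gjc1* and *Panx2*). A marker sum is the sum of CPM over a list.

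Alternatives were RLE and upper-quartile scaling, no filter, a minimum of 10 counts per library, limma-voom (limma 3.58.1), DESeq2 1.42.0, libraries thinned to equal depth, a replicate block and each library left out. All 10 members are named, other family genes with at least 10 counts in a library (some are not reported here), and in each list up to 4 genes past the threshold, by size of change. *Onecut1*, *Onecut2*, *Lhx1*, *Prox1*, *Calb2*, *Nt5e*, *A530058N18Rik*, *Gpr89* and *Gja6* were named after their values were seen. The members and lists were chosen with earlier results of these data known.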

Additional observations from a re-analysis of the deposited data

How the results depend on the processing

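*Gjd2* kept its direction in all 14 alternatives and was past the edgeR, DESeq2 or limma threshold in 7 of 8 that kept all libraries, the exception being the replicate block (log2 fold change −0.73, edgeR adjusted p = 0.0664), with −0.83 to −0.60 over the left-out libraries. *Panx2* reversed to −0.018 without the filter, and ranged from −0.25 to 0.27 with a library left out. The number of members called was 1 throughout, save 0 with the replicate block and 0 to 1 with a library left out. Among all genes, 2261 were called, 3720 without the filter (1511 higher, 2209 lower), 3621 with DESeq2, 905 with the replicate block and 46 (without the replicate 3 microbead library) to 2621 (without the replicate 1 saline library) in the left-out fits. In the fixed lists 5 genes were called, 8 without the filter, 8 with DESeq2, 2 with the replicate block and 0 to 8 with a library left out. *Ctnnb1*, *Drd4* and *P2ry1* were lost with the replicate block (edgeR adjusted p = 0.0717, 0.0574 and 0.0802). The causes were not tested. Same-numbered libraries had correlated deviations of −0.04, 0.14 and 0.01 and not every library correlated best with its own number. These weak values show no pairing by number but cannot exclude it. Counts of 3 or fewer reads over the microbead group limit *Gjb2*, *Gjb6* and *Gja5*.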
